A study of Arabidopsis thaliana with 12 samples.

Results

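CML30 (AT2G15680) and AT4G32060 are a pair of Arabidopsis thaliana calcium genes, each measured by a probe whose platform annotation named that gene alone. They are 2 of the 691 loci that single-gene probes gave on these arrays. Both were chosen by their lower intensity on the toc160 arrays, so the toc160 against WT values below are a description and carry no test. The 12 single-channel arrays carried total RNA of ecotype Wassilevskija, 6 from the wild type (WT) and 6 from toc160, a mutant with poor protein import across the outer envelope of the chloroplast. The protein Toc160 is better known as Toc159, a receptor that recognises precursor proteins at that envelope. The labels give no tissue, age or allele, and do not say that replicates came from separate plants, so p-values rest on the spread between these samples, which may be technical.

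Calcium ions act as a signal in plant cells: a stimulus raises the calcium level in the cytosol or an organelle, and proteins that bind calcium pass the change on. Many of them bind it through the EF-hand, a helix-loop-helix fold that calmodulin carries in several copies. Calmodulin-like proteins such as CML30 are calmodulin's plant relatives, and CML30 has been located to mitochondria. AT4G32060 encodes a mitochondrial calcium uptake protein. Proteins of that kind, known best from animals, sense calcium with EF-hands and gate its entry into the matrix through the uniporter channel of the inner mitochondrial membrane.

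CML30 transcript levels were lower on every toc160 array than on any WT array. The deposited intensity, a linear value in arbitrary units, was 1.66, 1.81, 1.35, 1.56, 1.91 and 2.09 on WT replicates 1 to 6. On toc160 replicates 1 to 6 it was 0.794, 0.853, 0.614, 0.649, 0.739 and 0.918. The groups did not overlap, with a gap between the lowest WT array, replicate 3, and the highest toc160 array, replicate 6. Consecutive arrays of a group (replicates 1 and 2, 3 and 4, 5 and 6) were nearly duplicates, so a mean is given over these 3 couples: 1.73 ± 0.273 for WT and 0.761 ± 0.112 for toc160 (SD, n = 3 couples).

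AT4G32060 was a brighter probe with the same direction of difference. Its deposited intensity was 5.75, 6.13, 4.31, 4.45, 4.22 and 4.49 on WT replicates 1 to 6. On toc160 replicates 1 to 6 it was 2.17, 2.46, 1.69, 1.85, 1.61 and 1.84. Again no toc160 array reached the lowest WT array, here replicate 5, and replicates 1 and 2 were the highest of their group in both genotypes. The WT mean was 4.89 ± 0.909 and the toc160 mean 1.94 ± 0.328 (SD, n = 3 couples). Lower values in all 6 toc160 arrays without overlap were found for 18 of the 691 loci as deposited, or 2.60%, and the choice of these genes had already used that contrast. In RNA of a whole sample, fewer cells that express a gene and less of its RNA per cell cannot be told apart.

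**Figure D1:**
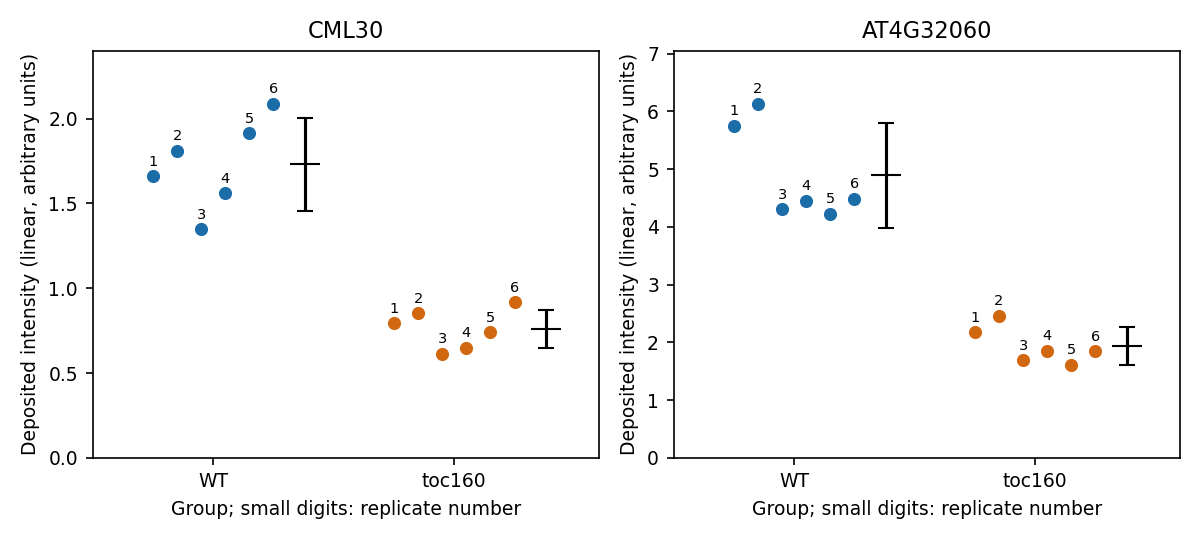
Deposited intensity of CML30 (left) and AT4G32060 (right) on each array, with WT in blue, toc160 in orange and the replicate number beside each point; bars give the mean ± SD of 3 couples of near-duplicate arrays. CML30 lies between 1.35 and 2.09 in WT and between 0.614 and 0.918 in toc160, and AT4G32060 between 4.22 and 6.13 and between 1.61 and 2.46.

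The order of loci by deposited brightness within an array is kept by median centring and quantile normalization, though cyclic loess can change it. CML30 ranked between 39 and 72 among the 691 loci on WT arrays, counted from the brightest, and between 199 and 325 on toc160 arrays. AT4G32060 ranked between 13 and 17 on WT arrays and between 33 and 69 on toc160 arrays. Both genes thus moved down the order on all 6 toc160 arrays relative to all 6 WT arrays.

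Array medians of the deposited values were 0.477 to 0.551 in WT and 0.627 to 0.646 in toc160, so the size of a difference depends on the scaling. After quantile normalization over all 3439 probes, the log2 difference, toc160 minus WT, was -1.36 for CML30 (limma SE 0.12) and -1.24 for AT4G32060 (SE 0.13). These correspond to 39.1% and 42.4% of the WT level. In that fit 10.4% of the 691 loci were called at an adjusted p of 0.05, and 5.50% were called lower in toc160. With the replicate number as a block, which the pairing of numbers across groups allows, 196 loci passed in place of 72. By size of fall after quantile normalization CML30 stood at place 2 of the 691, between LHB1B2 (-1.90) and AT4G31470 (-1.29). AT4G32060 stood at place 5, between AT1G62250 (-1.24) and XERICO (-1.16). These places hold for this scaling only: as deposited, CML30 fell less than AT4G32060 (-1.19 against -1.33). The 10 largest falls, from which both genes were taken, ended with AT5G06990 at -1.01, and the next locus outside them was AT5G52530 at -0.97.

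**Figure D2:**
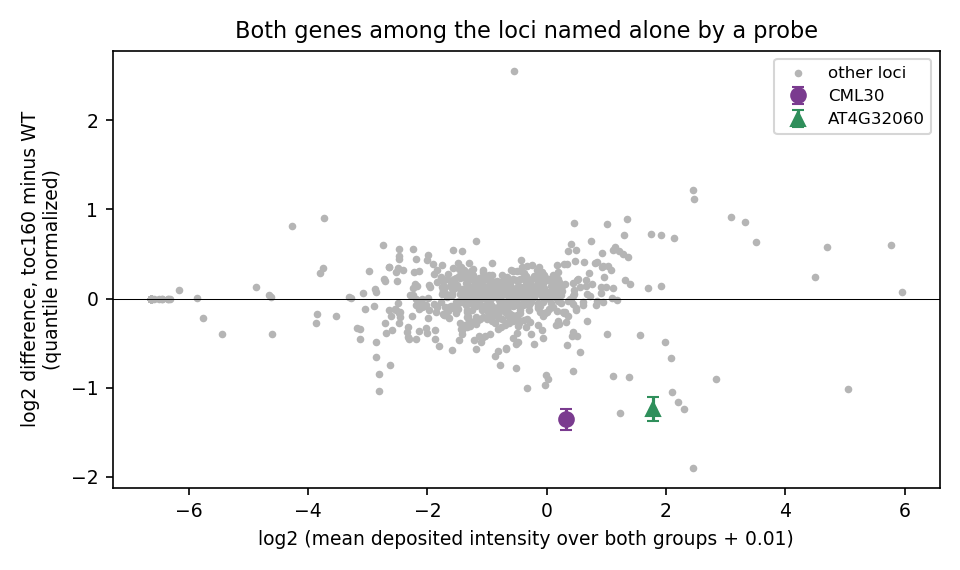
Log2 difference, toc160 minus WT, after quantile normalization (vertical axis) against log2 of the mean deposited intensity with a small offset of 0.01 (horizontal axis) for 691 loci in grey, with CML30 in purple, AT4G32060 in green and limma SE as bars. CML30 (-1.36) and AT4G32060 (-1.24) lie near the lower edge.

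Same-numbered arrays of the groups deviated together, so the difference can be followed number by number. For CML30 the log2 ratio of toc160 to WT after quantile normalization was -1.26, -1.30, -1.36, -1.48, -1.47 and -1.26 in replicates 1 to 6. For AT4G32060 it was -1.19, -1.06, -1.35, -1.22, -1.37 and -1.22. All 6 numbers were negative for both genes, with an SD over numbers of 0.098 for CML30 and 0.11 for AT4G32060. Averaged within the couples, the CML30 ratio was -1.28, -1.42 and -1.37 and the AT4G32060 ratio was -1.13, -1.29 and -1.30. The spread of the ratio was smaller than that of the levels themselves: the SD of the 3 couple means of normalized log2 intensity was 0.19 in WT and 0.24 in toc160 for CML30, and 0.20 and 0.30 for AT4G32060, against 0.071 and 0.096 for the ratios.

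Which of the genes differed more between genotypes depended on the scaling. As deposited, the mean log2 ratio was -1.19 for CML30 and -1.33 for AT4G32060, beside a median of 0.33 over all loci. With arrays centred on their medians the values were -1.51 and -1.66, and with cyclic loess -1.42 and -1.35. The CML30 ratio was the lower one in 6 of 6 replicate numbers after quantile normalization, in 4 with cyclic loess, and in 1 as deposited or with median centring. The difference between the log2 ratios, CML30 minus AT4G32060, averaged -0.12 ± 0.10 after quantile normalization, 0.15 ± 0.13 as deposited and -0.065 ± 0.088 with cyclic loess (SD over 6 replicate numbers, which form 3 near-duplicate couples). Its largest size in any number and scaling was 0.34, so the data do not set an order of the changes of these genes.

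**Figure D3:**
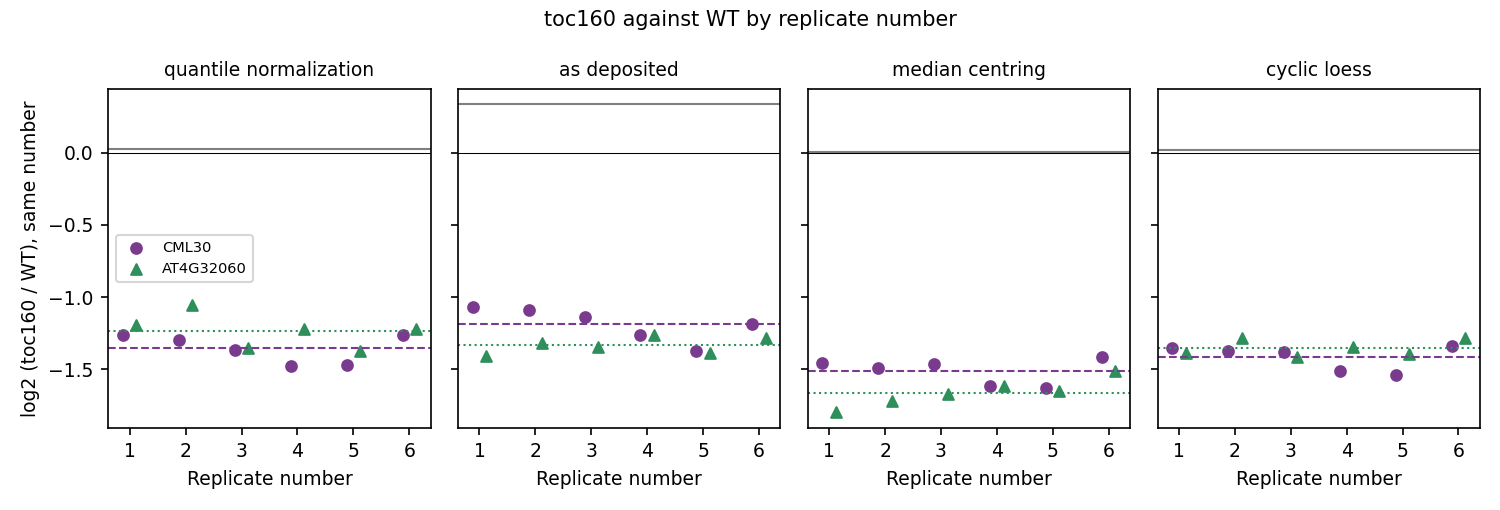
Log2 ratio of toc160 to WT (vertical axis) for each replicate number (horizontal axis) under 4 scalings, with CML30 as purple circles and dashed mean, AT4G32060 as green triangles and dotted mean, and the median of all loci as a grey line. All points lie between -1.80 and -1.06, and the order of the means changes with the scaling: -1.36 and -1.24 after quantile normalization, -1.19 and -1.33 as deposited.

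How the level varied among replicates is a measure that the choice of the genes had not used. CML30 was lowest in replicates 3 and 4 in both genotypes: the normalized log2 deviation from the group mean was -0.31 and -0.12 in WT and -0.32 and -0.24 in toc160. In replicates 1, 2 and 6 CML30 lay above its group mean in both genotypes, while replicate 5 was above in WT (0.075) and below in toc160 (-0.039). AT4G32060 lay above its group mean in replicates 1 and 2, by 0.22 and 0.25 in WT and 0.27 and 0.43 in toc160, and below it in all of replicates 3 to 6. WT and toc160 deviations had the same sign in 5 of 6 numbers for CML30 and in 6 of 6 for AT4G32060. Over all 12 arrays the genes deviated to the same side on 9, of which 4 were WT and 5 toc160. The other 3 arrays all belonged to replicates 5 and 6, where CML30 was above its group mean and AT4G32060 below; a difference between the genes in this respect was not tested.

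The effect of the replicate number, averaged over both genotypes, was tested with limma's moderated F test of the number with the group as a covariate, adjusted over the 691 loci. The adjusted p was 0.00947 for CML30 and 0.0107 for AT4G32060, with fitted levels spanning 0.53 and 0.55 on the log2 scale. The test passed for 280 loci, or 40.5%, so a call is common among the loci of these arrays. With the dimmest 25% of loci left out, a set that still holds both genes, 323 of 518 passed. The test also counts near-duplicate arrays as separate samples. With couples averaged and 3 couples in place of 6 numbers, an alternative added after the data were seen, the limma adjusted p was 0.0563 and 0.0607, and neither gene passed, while 13.9% of loci did. The labels do not say what a replicate number stands for.

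**Figure D4:**
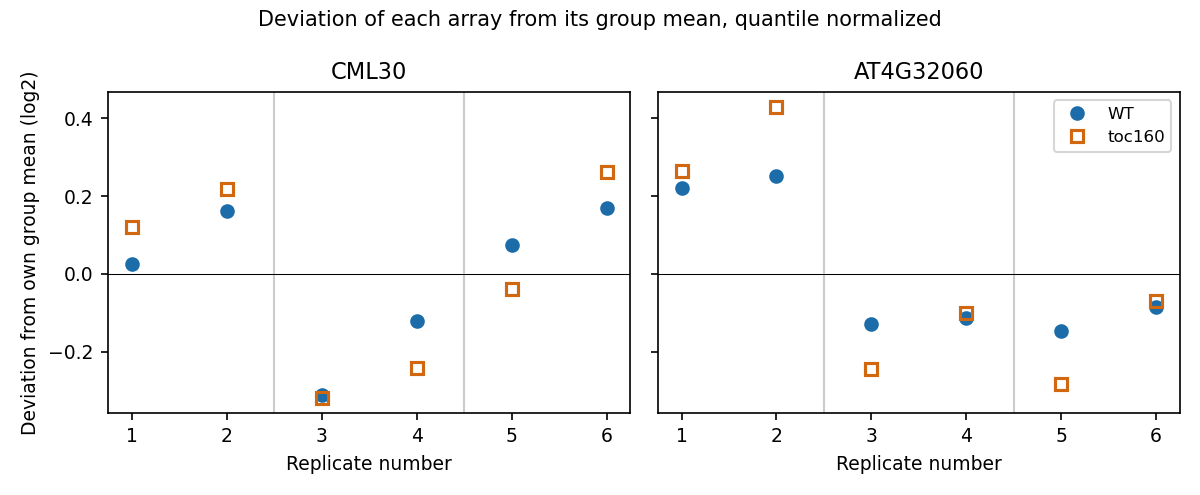
Deviation of normalized log2 intensity from the own group mean (vertical axis) by replicate number (horizontal axis) for CML30 and AT4G32060, with WT as blue circles and toc160 as open orange squares; grey lines part the couples of near-duplicate arrays. CML30 is lowest in replicate 3 (-0.31 in WT, -0.32 in toc160), and AT4G32060 is highest in replicate 2 (0.25 and 0.43).

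The loci most like each gene were found by the mean absolute log2 difference between normalized profiles over the 12 arrays, each profile centred on its own mean, among 630 other loci with no value at the floor of the log scale. This measure holds the genotype difference, on which both genes were chosen. Closeness between them by this measure is thus largely set by that choice and is no support for shared behaviour. The locus nearest to CML30 was AT4G32060, at 0.18, against a median of 0.71 over the loci compared. It was followed by AT5G06990 (0.23), AT1G62250 (0.24), PSBY (0.29), a subunit of photosystem II, and AT3G25840 (0.29). The locus nearest to AT4G32060 was XERICO (0.16), a RING zinc-finger gene linked to abscisic acid levels, and CML30 came next at 0.18. After them stood AT5G52530 (0.19), AT4G19900 (0.20) and AT4G31530 (0.20).

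With each profile centred on its group means, which removes the genotype difference, the genes were closer than the median locus but not among the nearest. AT4G32060 then stood at place 98 of 630 for CML30 and CML30 at place 130 for AT4G32060, at a mean absolute difference of 0.18 against medians of 0.26. The loci nearest to CML30 were AT2G28790 (0.073), AT1G48570 (0.078), AT1G61990 (0.087), OSB1 (0.092), an organellar single-stranded DNA-binding protein, and AT2G26680 (0.094). Those nearest to AT4G32060 were AT1G17160 (0.075), AT2G25870 (0.079), AT2G46850 (0.080), AT4G27510 (0.082) and AT4G20820 (0.083). The nearest by genotype and the nearest by replicate shared no locus. Log2 differences between genotypes of these last 10 loci ran from -0.26 (AT4G27510) to 0.40 (AT1G17160).

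Few other calcium genes were found by name among the single-gene probes. All gene lists here were matched by symbol or synonym, so genes known by locus number alone were not counted. Of 218 entries in 6 lists of calmodulins, calcium-dependent kinases, calcineurin B-like proteins with their kinases, calcium transport, calmodulin-binding factors and calcium stores, 4 loci besides CML30 and AT4G32060 were measured. After quantile normalization 0 of these 4 passed limma's adjusted p of 0.05 in either direction, against 10.4% of all loci, and 1, GLR2.7, had an unadjusted p under 0.05. Their median log2 difference was -0.044, beside 0.026 over all loci, and turned to 0.096 with median centring (0.0071 over all loci) and 0.11 with cyclic loess (0.017 over all loci).

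CML41, another calmodulin-like gene, had deposited intensities of 0.881, 0.850, 1.06, 1.02, 0.951 and 0.979 on WT replicates 1 to 6. On toc160 replicates 1 to 6 they were 1.31, 1.25, 1.56, 1.49, 1.06 and 1.11. One toc160 array, replicate 5, lay below the highest WT array, and all others lay above it. The log2 difference of CML41 was 0.22 after quantile normalization (SE 0.11, limma adjusted p 0.255), opposite in sign to that of CML30, and 0.10 with median centring (adjusted p 0.618). As deposited it was 0.43 (limma adjusted p 0.00709), in a fit where 38.5% of all loci passed with a higher level in toc160 and the median of all loci was 0.33.

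GLR2.7, a glutamate receptor-like channel of a family that conducts calcium, had a log2 difference of -0.42 after quantile normalization (SE 0.16, limma adjusted p 0.157) and of -0.080 as deposited (adjusted p 0.731). Its deposited level was 0.428 to 0.550 in WT and 0.310 to 0.649 in toc160, with a wider range in the mutant that spanned all WT values. IQD32 and IQD22 belong to a plant family whose IQ motifs bind calmodulin. IQD32 had a log2 difference of 0.033 (SE 0.069, limma adjusted p 0.852), and 0.42 as deposited, where it passed (adjusted p 0.0030) in the fit that called 38.5% of all loci higher. IQD22 was dim, with means of 0.0907 in WT and 0.130 in toc160, and its log2 difference was -0.12 after quantile normalization but 0.55 as deposited. As deposited 3 of the 4 differences were above 0, and the median of the 4 was 0.42, beside 0.33 over all loci. No member of the calcium-dependent kinase, calcineurin B-like or calcium store lists was measured by a single-gene probe. Neither was any of the 89 loci that symbols placed on a list of mitochondrial carriers, import and respiration genes. Mitochondrial genes with other names were not looked for.

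**Figure D5:**
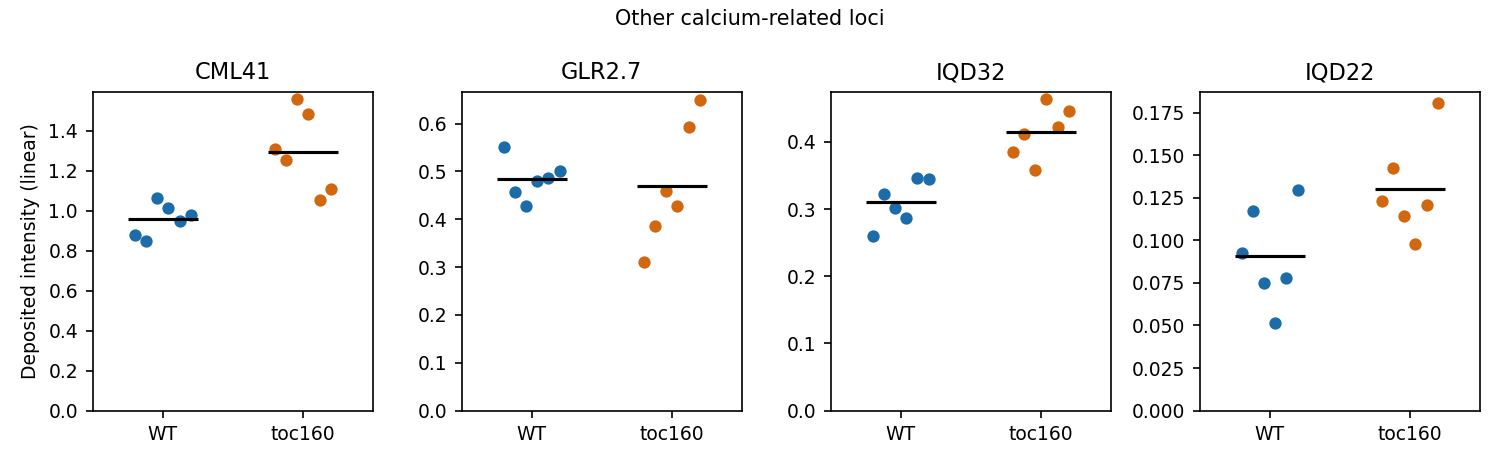
Deposited intensity (vertical axis, linear) of CML41, GLR2.7, IQD32 and IQD22 on each WT (blue) and toc160 (orange) array, with group means as lines. CML41 has means of 0.957 in WT and 1.30 in toc160, and the GLR2.7 means of 0.484 and 0.471 lie within the range of either group.

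Within 3 numbers of the CML30 probe, the brightest of 4 other probes reached 2.77 on an array, above the highest CML30 value of 2.09. The remaining probes there reached at most 1.52. None of the 3 around AT4G32060 exceeded 1.01, below that gene's lowest value. In the gene order of the TAIR10.1 reference, the nearest measured loci to CML30 were AT2G15440, with 19 genes between and a log2 difference of -0.16 (SE 0.29), and AT2G17670, with 176 between and 0.15 (SE 0.26). Those nearest to AT4G32060 were AT4G31930, with 13 genes between and a log2 difference of 0.85 (SE 0.14), and AT4G32340, with 31 between and -0.0091 (SE 0.16).

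A list of photosystem, antenna and RuBisCO small-subunit genes of the leaf had 6 measured members, none of them a RuBisCO gene. Their summed deposited intensity ran from 28.3 to 55.6 on WT arrays and from 25.5 to 39.4 on toc160 arrays, with overlap. These sums rest largely on PSBW, the brightest member, with means of 25.2 in WT and 27.0 in toc160. By limma's adjusted p after quantile normalization, without a block, LHB1B2, PSAN and PSBY were lower, PSBW was higher and PSB27 and LPA19 did not pass, where 10.4% of all loci passed and 5.50% were lower. With the replicate number as a block PSAN did not pass (adjusted p 0.0544), and on averaged couples with a block neither PSAN (0.270) nor LHB1B2 (0.109) did. For PSBW the log2 difference of 0.58 after quantile normalization became -0.24 with median centring (adjusted p 0.551) and 0.084 as deposited (0.784). Their part in the levels of CML30 and AT4G32060 was not tested. Seed and root lists had no measured member.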

How the data were processed

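The authors deposited 1 linear intensity per probe and array; scanning, background correction and scaling are not given in the sources used here, and neither is a genome build, so no coordinates are printed. Deposited intensities ran from 0 to 100 with array means of 1.05 to 1.11, and precision is limited by the small number of arrays. Of 3439 probes, 692 named 1 gene, 870 several and 1877 none in the platform annotation; 691 were matched to the TAIR10.1 reference by gene identifier or locus tag, and probes of 1 locus were averaged.

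Values under the 1st percentile of positive intensities (0.0364) were raised to it, log2 transformed and quantile normalized, since array medians differed by 0.44 on the log2 scale. Fits used limma 3.58.1 in R 4.3.3 on all 691 loci, with two-sided p-values adjusted by Benjamini-Hochberg and a call at 0.05. They were tested on simulated data with independent noise on each array and no near-duplicate couples. That simulation cannot show how the p-values behave with the couples of these data. The replicate numbers pair the groups: arrays with the same number had deviations that correlated over loci, with r of 0.53 to 0.78 in all 6 pairs. Spearman correlations were 0.981 to 0.989 within near-duplicate couples and 0.877 to 0.947 between other arrays of a group.

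The members, gene lists and tests were chosen with earlier results of these data known. Named genes are both members, the 5 loci nearest in profile by each centring, and neighbours in the ranking and in gene order. Measured members of the calcium lists are named too, up to 3 a list with the largest difference. All 6 measured members of the leaf list are also named. Alternatives were other scalings, floors, filters, blocks, couple averages and leaving out each array. Promoter and protein sequences were not used here.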

Additional observations from a re-analysis of the deposited data

Results flagged for a closer look

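Values of 48 groups of 6 arrays, for 24 named loci, were checked for an array apart from the rest, and 2 held one. Chance gives about 5% for independent arrays, which these near-duplicate couples are not, so the share is no guide here. Neither flagged locus was CML30 or AT4G32060. An array close to its near-duplicate cannot be flagged by this check, so the lack of a flag for these genes says little. OSB1, among the loci nearest to CML30 by replicate, lay at a normalized log2 intensity of -1.26 on toc160 replicate 3 and at -0.95 on the nearest toc160 array, a gap of 0.696 of the group's range. AT4G31530, among the loci nearest to AT4G32060, lay at 5.62 on WT replicate 3 and at 5.38 on the nearest WT array, a gap of 1 times the range. The other 5 WT arrays share 1 normalized value, because quantile normalization gives a probe of equal rank the same value, and the deposited WT intensities ran from 37.0 to 53.3, so this gap is one of ranks.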

How the results depend on the processing

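A block, averaged couples or a filter on dim loci cannot change a log2 difference in this balanced design. Under the other 16 alternatives that of CML30 stayed within the spread between replicates (-1.51 to -1.19). That of AT4G32060 did so in 15, the exception being median centring at -1.66. Among these 16, the higher floor (0.132) left both differences unchanged, since no intensity of either gene lies under it. Leaving out 1 array gave -1.42 to -1.30 for CML30, -1.33 to -1.16 for AT4G32060 and 57 to 71 loci passing between genotypes. That count was 72 of 691 loci, or 292 as deposited and 196 with the replicate block by number. On averaged couples it was 3 without a block and 12 with the replicate block. With the dimmest 25% of loci left out, 66 of 518 passed on all arrays without a block. Added later, averaged couples with the replicate block gave 116 of those 518. In that fit limma pooled variances over loci far more strongly (prior degrees of freedom 32.7 against 0.84), so 116 and 12 are not like for like. Higher loci made up 47.2% of those passing after quantile normalization, 91.1% as deposited, 23.6% with median centring and 41.5% with cyclic loess. Averaged couples without a block raised the SE from 0.12 to 0.17 for CML30 and from 0.13 to 0.19 for AT4G32060, and the replicate block by number lowered it to 0.039 and 0.045. For the replicate number, the limma adjusted p without the group term was 1 for both genes and 131 loci passed, in place of 280, since that fit leaves the genotype difference in the residual. Averaged couples gave 0.0563, 0.0607 and 96 loci; the fit then has fewer samples. Leaving out 1 number gave 0.0113 to 0.0491 for CML30, 0.0165 to 0.0342 for AT4G32060 and 213 to 256 loci. How the authors scaled the intensities is unknown, so a shift common to most probes cannot be told from scaling.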

Other observations

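Within every couple of near-duplicate arrays the even-numbered array had the higher value, for both CML30 and AT4G32060, in 6 of 6 couples as deposited and after quantile normalization. Of all 691 loci, 28 did so as deposited (4.05%) and 24 after quantile normalization (3.47%). This pattern was seen in the values before it was counted, and the labels do not say how odd and even numbers differ.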
